A study of Mus musculus with 6 samples.

Results

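Extracellular nucleotides are signals of cell damage and activity in the brain, and microglia, the resident macrophages of the brain, read them through a set of cell-surface receptors. Cells release ATP, which ectonucleotidases on cell surfaces split step by step into ADP, AMP and adenosine, so that each product reaches its own receptors. P2X receptors are cation channels that ATP itself opens. P2Y receptors are G protein-coupled, and those described here answer to ADP, UDP or UDP-sugars.

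The 7 genes described here were chosen by symbol and are *P2ry12* and *P2ry13*, which encode receptors for ADP, *P2ry6*, the receptor for UDP, *P2ry14*, the receptor for UDP-glucose, *P2rx4* and *P2rx7*, which encode ATP-gated channels, and *Entpd1*, which encodes CD39, the ectonucleotidase that takes ATP and ADP to AMP. All 7 were listed in all 6 libraries, among 31053 genes listed in the cortex libraries and 27998 in the hippocampus libraries. The libraries held single cells from perfused female wild-type C57Bl/6J mice for which no treatment was given. White matter was trimmed, the cells were freed by enzymes, and myelin debris was then removed. Cortex came from mice of 3 weeks and hippocampus from mice of 5 weeks, and each region was 1 suspension pooled from 3 mice and loaded as 3 technical replicates. Each region was therefore 1 biological sample, so no test between groups was made. The SD over libraries and the 95% intervals (exact Poisson for a level, exact conditional for a ratio) cover technical and counting error only, not differences between mice. Region, age, preparation and gene annotation changed together and cannot be told apart.

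The libraries totalled 39662203 to 50024850 unique molecular identifiers (UMIs, each counting 1 captured RNA molecule) and left 4351 to 4830 cells each after filtering. Cells were grouped without any purinergic gene, and a class was named from fixed markers that held no purinergic gene. The levels of the 7 genes therefore entered neither the grouping nor the markers. These genes could still take places among a cluster's 10 leading genes, and a cluster led by markers of another class was left unnamed. The summed levels of marker lists given beside the 7 genes did choose the cells, and are descriptions. Every class was called a cell type "-like" on those markers, and a plain cell type name stands for such a class from here on. The 10 microglial markers all passed in each of the 5 cortical microglial clusters and in 4 of the 5 hippocampal ones, and 3 of them passed in the last, a cluster of 287 cells. Microglia numbered 6169 in cortex and 6104 in hippocampus, and macrophages 110 and 147. Endothelial cells numbered 2618 and 2029, pericytes 312 and 370, vascular smooth muscle cells (VSMCs) 172 and 85, and astrocytes 2734 and 1877. Some hippocampal cells carried barcodes that occurred in more than 1 library, at 274, 250 and 225 cells a library against 18 to 29 in cortex. These shared barcodes made up 67.6% of the hippocampal epithelial cells and 40.5% of its monocytes, so those classes were read with care.

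A level is given as CPM, the summed UMIs of a gene in a class scaled to a fixed total of UMIs of that class. The libraries were 3′ counts without correction for transcript length or capture, so levels were compared between cells for 1 gene and not between genes.

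*P2ry14*, *P2ry13* and *P2ry12* lay close together on the minus strand of chromosome 3 (GRCm38, GENCODE vM21), at chr3:59113855-59153618, chr3:59207892-59210882 and chr3:59216272-59262871. *P2ry13* and *P2ry12* were 5.39 kb apart with no gene between them, and *P2ry14* and *P2ry13* were 54.3 kb apart. All 3 receptor genes lay within *Med12l*, a Mediator subunit gene on the opposite strand whose exons overlapped those of *P2ry12* alone. *P2rx7* (chr5:122643911-122691432) and *P2rx4* (chr5:122707544-122729738) were also neighbours, 16.1 kb apart on the plus strand. *P2ry6* was at chr7:100937630-100974649 on the minus strand and *Entpd1* at chr19:40612366-40741602 on the plus strand.

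The start regions of these 3 chromosome 3 genes are printed because, as the levels show, this cluster held 2 genes found mainly in microglia and 1 found mainly in pericytes. The windows are from RefSeq on GRCm38.p6 and run from 250 bases before to 50 bases after an annotated start, 5′ to 3′ on the minus strand, at chr3:59262936-59263235 for *P2ry12*, chr3:59210833-59211132 for *P2ry13* and chr3:59153443-59153742 for the first of the 4 *P2ry14* starts. Capitals mark AGGAAG, the core letters bound by ETS-family factors such as PU.1, searched on both strands.
P2ry12: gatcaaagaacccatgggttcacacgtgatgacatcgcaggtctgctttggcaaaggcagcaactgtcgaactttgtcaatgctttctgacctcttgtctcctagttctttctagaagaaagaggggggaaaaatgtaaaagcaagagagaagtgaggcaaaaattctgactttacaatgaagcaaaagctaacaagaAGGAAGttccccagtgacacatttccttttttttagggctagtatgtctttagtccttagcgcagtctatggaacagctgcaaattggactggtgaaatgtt
P2ry13: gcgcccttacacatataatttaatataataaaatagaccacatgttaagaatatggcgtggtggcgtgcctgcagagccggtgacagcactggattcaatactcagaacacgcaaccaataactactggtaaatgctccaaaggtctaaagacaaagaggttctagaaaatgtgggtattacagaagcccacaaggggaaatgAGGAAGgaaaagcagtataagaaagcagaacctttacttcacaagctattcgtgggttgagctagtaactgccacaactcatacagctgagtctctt
P2ry14: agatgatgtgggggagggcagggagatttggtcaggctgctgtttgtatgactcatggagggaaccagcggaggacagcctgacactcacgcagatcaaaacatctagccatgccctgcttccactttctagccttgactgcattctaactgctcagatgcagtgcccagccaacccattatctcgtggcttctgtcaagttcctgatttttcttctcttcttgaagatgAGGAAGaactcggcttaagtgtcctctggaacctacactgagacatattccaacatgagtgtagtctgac
Each of these 3 windows held the motif once, and the other 3 start windows of *P2ry14* did not hold it. The same letters occurred in 35.4% of the 32851 promoter windows of this length, and in 5 of the 11 windows of the 6 genes that had one. The match is a description of letters only.

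Microglia, 46.3% of the kept cells in cortex and 43.0% in hippocampus, carried most of the UMIs of 6 of the 7 genes. The lowest of these shares were those of *P2rx4*, at 68.9% and 62.6%. The share of all genes with most of their UMIs in microglia was not computed, so this count is a description. *P2ry12*, through which microglial processes move towards a source of ADP, stood at 3772 CPM in cortical microglia, and the 3 libraries read 3778, 3776 and 3762 CPM. Hippocampal microglia read 3499, 3482 and 3546 CPM. The libraries within a region lay close together and those of the cortex were all above those of the hippocampus. All other named cells together held 84.8 CPM in cortex, a 44.0-fold difference (folds over all other cells have 1 CPM added to both sides), and the difference was 52.0-fold in hippocampus. Of the 4687 *P2ry12* UMIs in these other cortical cells, 2419 lay in 317 erythroid cells, whose microglial markers are described below. Of all *P2ry12* UMIs in the kept cells, 94.8% in cortex and 95.7% in hippocampus came from microglia.

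*P2ry13*, the second ADP receptor gene, read 683, 660.0 and 660.0 CPM in cortical and 799, 795 and 796 CPM in hippocampal microglia. Here the hippocampal libraries were the higher ones, without overlap. Other cells together stood at 15.2 CPM in cortex, and the difference from microglia was 41.4-fold in cortex and 49.7-fold in hippocampus.

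*P2ry6*, whose receptor for UDP is known for its part in microglial phagocytosis, read 316, 326 and 328 CPM in cortical and 306, 301 and 303 CPM in hippocampal microglia. These values were 25.8-fold and 24.5-fold above those of other cells. The regions did not overlap but lay within 1.07-fold of each other.

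*P2rx7*, the channel that opens at high ATP and is known for its part in release of IL-1β, read 89.3, 94.7 and 97.2 CPM in cortical and 101, 94.7 and 98.6 CPM in hippocampal microglia, and the regions overlapped. It was 9.28-fold above other cells in cortex and 6.76-fold in hippocampus. *Entpd1* read 418, 374 and 349 CPM in cortical and 425, 404 and 422 CPM in hippocampal microglia, again with overlap, and was 6.29-fold and 10.8-fold above other cells. The other cells differed in make-up between the regions, with 66 oligodendrocytes in cortex and 1075 in hippocampus. An erythroid class, of 317 cells, was named in cortex only. No fold over other cells is therefore compared between regions. In endothelial cells *Entpd1* stood at 85.9 CPM in cortex and 101 CPM in hippocampus. 

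*P2rx4*, an ATP-gated channel that resides largely in lysosomes, read 59.5, 71.0 and 66.5 CPM in cortical and 100.4, 98.5 and 92.0 CPM in hippocampal microglia. It was 3.63-fold and 2.98-fold above other cells and so stayed under the 4-fold mark used here. With TMM factors in place of total UMIs the cortical value passed 4-fold.

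Counted by that mark, 5 of the 7 genes were at least 4-fold higher in microglia than in all other named cells in cortex, where 6.22% of the 14674 genes tested were, and 5 of the 7 in hippocampus, where 6.23% of 15494 were. They were the same 5 genes in both regions. *P2ry14* went the other way, at 0.343 CPM in cortical microglia against 38.8 CPM in other cells.

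**Figure D1:**
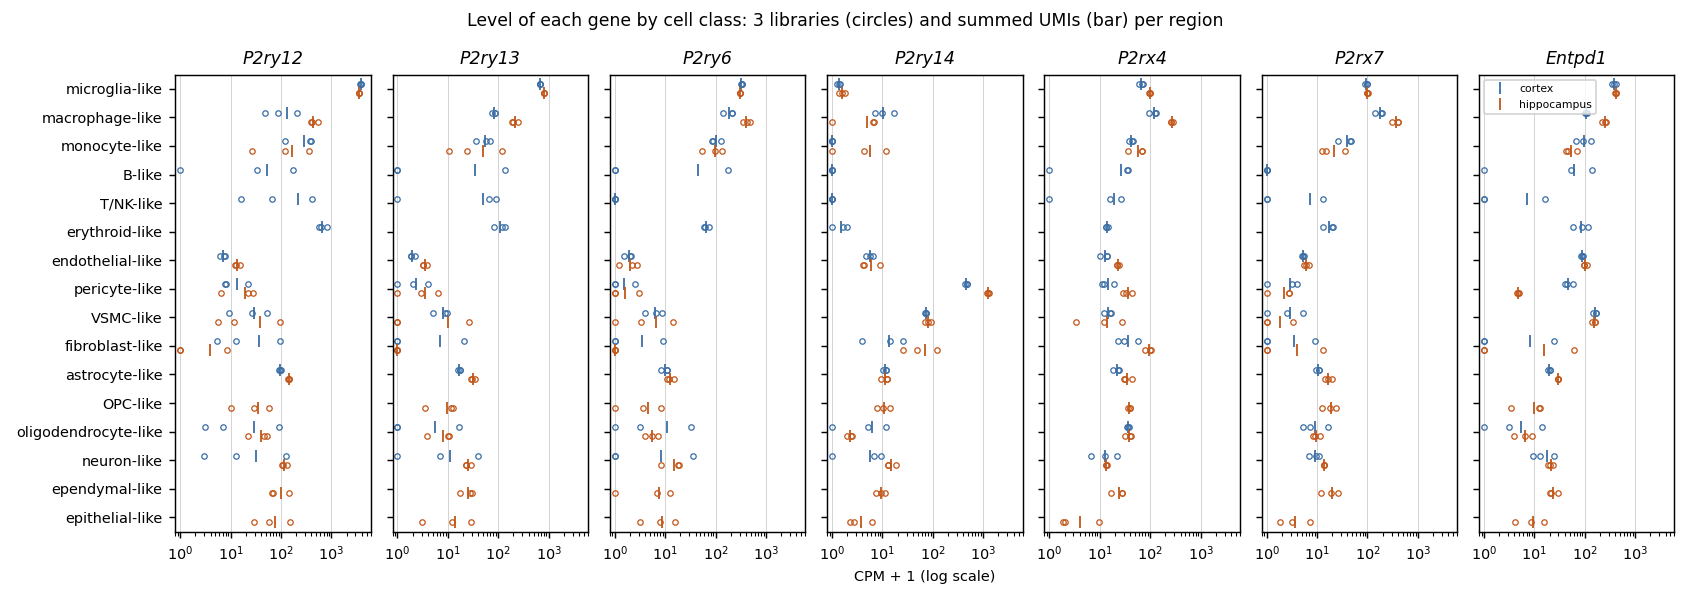
Level of each gene (CPM + 1, log axis) by named class, with circles for the 3 technical libraries of a region and a bar for their summed UMIs. *P2ry12*, *P2ry13* and *P2ry6* are high in microglia, *P2ry14* in pericytes (459.7 CPM in cortex), and *Entpd1* is also found in VSMCs and endothelial cells (159.8 and 85.9 CPM in cortex).

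Shares of cells were compared at equal depth, leaving out cells with fewer UMIs. When each cell was thinned to 1000 UMIs, *P2ry12* was found in 95.2% of cortical and 93.1% of hippocampal microglia, *P2ry13* in 47.7% and 54.2%, and *P2ry6* in 28.1% and 25.9%. *Entpd1* was found in 31.3% and 35.6%, *P2rx7* in 9.32% and 10.0%, and *P2rx4* in 6.64% and 9.19%. *P2ry14* was found in 0.0164% and 0.0498%.

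Free RNA and doublets give cells of other types some microglial UMIs, so each level outside microglia was set beside the summed level of the 10 microglial markers in the same class, both as a percent of microglia. In astrocytes, a class that should lack microglial genes, the markers stood at 2.60% of their microglial level in cortex and 3.97% in hippocampus. *P2ry12* stood at 2.51% and 4.01%, *P2ry13* at 2.37% and 3.76%, and *P2ry6* at 2.81% and 3.83%. These 3 receptor genes were thus at the level of the background in astrocytes. In cortical erythroid cells the markers and *P2ry12* were both at 17.0%. Of the 12 other classes of each region, none had *P2ry12* or *P2ry13* with a lower interval bound above 2 times the marker level. For macrophages and monocytes this comparison cannot decide, because they express some of the markers themselves. In cortical macrophages *Csf1r* stood at 34.2% of its microglial level and *Tmem119* at 1.16%. In cortical monocytes these 2 markers stood at 33.2% and 8.91%.

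The other genes stood above this microglial background in more classes, though the markers do not measure RNA carried over from other cells. *P2ry6* exceeded 2 times the marker level in 1 class in cortex, macrophages, and in 2 in hippocampus, macrophages and monocytes. *P2rx7* did so in 5 and 7 classes, *P2rx4* in 10 and 11, and *Entpd1* in 5 and 2. The cortical *Entpd1* classes included B cells, with 7 UMIs in 26 cells, and pericytes. The pericyte level fell from 45.8 to 1.67 CPM without the cells rich in endothelial RNA. VSMCs and endothelial cells were among the *Entpd1* classes of both regions.

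**Figure D2:**
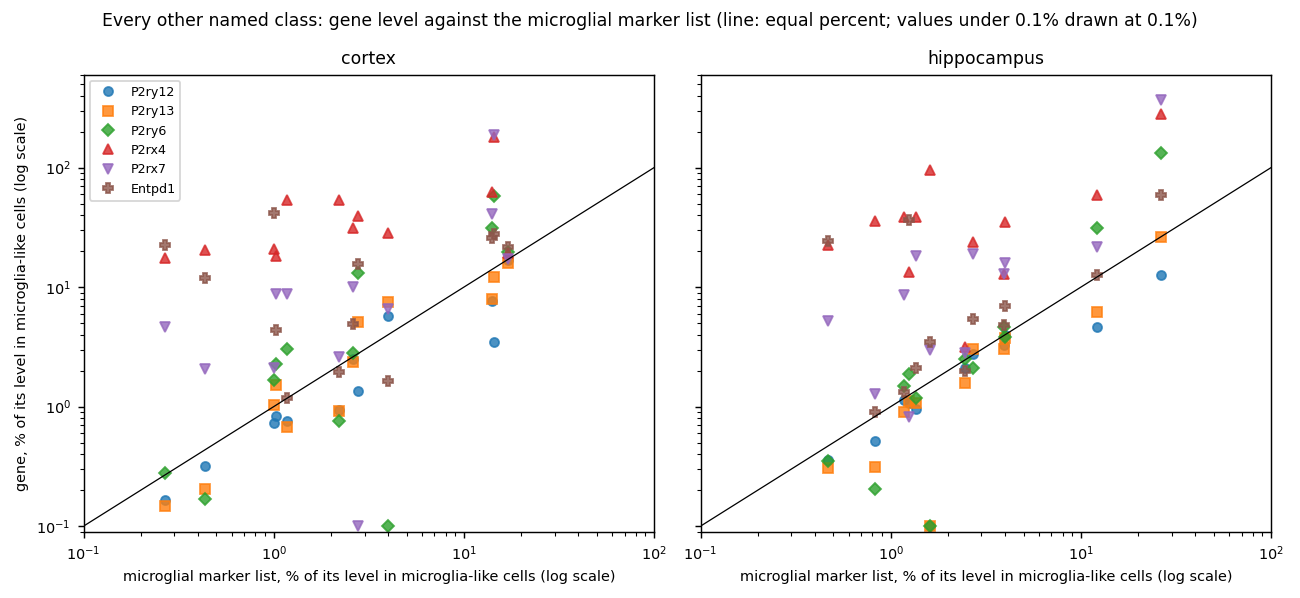
Level of each gene in each class outside microglia against the summed level of the 10 microglial markers there, both in percent of the microglial level (log axes), cortex on the left and hippocampus on the right, with *P2ry14* left out. *P2ry12* stays near the line of equal percent in astrocytes (2.51% against 2.60% in cortex), and *P2rx4* and *P2rx7* lie above it in macrophages, at 181% and 187% in cortex.

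Macrophages, which line vessels and the brain surface, held these receptor genes at levels that differed from those of microglia. *P2rx7* read 142, 183 and 193 CPM in cortical and 400.3, 310.2 and 408 CPM in hippocampal macrophages, above microglia in every library. The ratio to microglia was 1.87 (1.56 to 2.23) in cortex and 3.69 (3.26 to 4.16) in hippocampus. *P2rx4* read 94.6, 131 and 123 CPM in cortical and 255, 288 and 257 CPM in hippocampal macrophages. Its ratio to microglia was 1.81 (1.45 to 2.24) and 2.78 (2.41 to 3.20). Both channel genes were therefore highest in macrophages among all named classes in both regions.

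*P2ry12* was low in macrophages, at 47.3, 209.9 and 87.6 CPM in cortex, or 3.48% of the microglial level, where the marker list stood at 14.4%. Single markers of the list differed widely there, from 1.16% for *Tmem119* to 30.2% for *Fcrls* and 34.2% for *Csf1r*, the last 2 being genes that macrophages also express. *P2ry13* stood at 12.2% in cortical macrophages. In the hippocampus the list stood at 26.2%, *P2ry12* at 12.5% and *P2ry13* at 26.4%.

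*P2ry6* read 210.3, 207 and 140.1 CPM in cortical macrophages, each under its library's microglial value, and 412, 355 and 480.3 CPM in hippocampal ones, each above it. The ratio to microglia was 0.579 (0.486 to 0.684) in cortex and 1.33 (1.18 to 1.48) in hippocampus. *Entpd1* read 99.9, 106 and 109 CPM in cortical and 259, 248 and 223 CPM in hippocampal macrophages, under microglia in both regions.

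All 6 of these genes were higher in hippocampal than in cortical macrophages without overlap of libraries, as were 25.5% of the 4139 genes tested in these cells. The differences ran from 1.04 on the log2 scale for *P2rx7* to 1.74 for *P2ry12*, and the median of all genes was 0.25. The macrophage clusters of the regions were alike in part: *Pf4*, *Mrc1*, *Ms4a7* and *F13a1* were among the 10 leading genes in both. *H2-Aa*, *H2-Eb1*, *Cd74* and *Ccr2*, genes of antigen presentation and of cells recruited from blood, were among them in cortex only. *Lyve1* and *Cbr2* were among them in hippocampus only. The microglial marker list stood at 14.4% and 26.2% in the same cells, and the part of either in the result was not tested.

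*P2rx4* was also found in glia that are not immune cells and in fibroblasts. It stood at 35.3 CPM in cortical and 37.1 CPM in hippocampal oligodendrocytes, named on markers of myelin-forming cells, and at 37.2 CPM in hippocampal oligodendrocyte precursors. The 66 cortical cells also passed 7 precursor markers. When cells were grouped with the libraries merged, 40 cortical cells were named precursors and 25 oligodendrocytes. Astrocytes held 20.7 and 34.1 CPM, endothelial cells 11.5 and 22.0 CPM and pericytes 13.4 and 34.8 CPM. Fibroblasts held 35.5 CPM in cortex and 93.4 CPM in hippocampus, the latter from 32 UMIs in 39 cells. The levels in oligodendrocytes, precursors and hippocampal astrocytes overlapped between libraries. *P2rx7* stood at 9.50 and 15.7 CPM in astrocytes and 17.8 CPM in the precursors.

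*P2ry14* was a pericyte gene in these cells. Pericytes, which wrap brain capillaries, read 468, 477 and 437 CPM in cortex and 1213, 1270.0 and 1196 CPM in hippocampus, and gave 75.1% and 52.0% of all *P2ry14* UMIs in the kept cells. Named cells other than microglia held 2146 of the 2234 UMIs in cortex but 2484 of the 3797 in hippocampus. The rest lay in microglia and unnamed cells, and some unnamed hippocampal cells carried pericyte markers. The 2 shares are therefore not compared. VSMCs came next, at 71.0, 70.2 and 73.5 CPM in cortex and 68.7, 90.8 and 79.7 CPM in hippocampus, without overlap with pericytes. Fibroblasts held 12.2 CPM in cortex, where their libraries ran from 2.91 to 24.1 CPM and spanned those of astrocytes, at 10.3 CPM. In hippocampus fibroblasts held 70.1 CPM, and the 39 cells read 24.4, 47.4 and 119.6 CPM and overlapped VSMCs. Pericytes were 6.42-fold above VSMCs in cortex and 15.3-fold in hippocampus, and 99.6-fold and 255-fold above endothelial cells. The cortical pericytes included cells rich in endothelial RNA, described below, so these folds are not compared between regions.

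Microglia held 12 *P2ry14* UMIs in all in cortex and 25 in hippocampus. The ratio of pericytes to microglia was 1342 (766 to 2602) in cortex and 2044 (1380.3 to 3166) in hippocampus. After thinning, 42.8% of cortical and 65.7% of hippocampal pericytes held a *P2ry14* UMI. For the same reason, neither these ratios nor these shares are compared between regions.

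The cortical pericytes were not uniform. Regrouping the vascular cells split them into 186 cells with 14983 CPM of endothelial markers and 126 cells with 819 CPM of them. *P2ry14* read 361, 384 and 342 CPM in the first and 959, 983 and 928 CPM in the second, a ratio of 2.64 (2.38 to 2.92). The main hippocampal pericyte subcluster, 318 cells with 463 CPM of endothelial markers, read 1232, 1289.5 and 1205 CPM. Its ratio to the cortical subcluster low in endothelial markers was 1.30 (1.18 to 1.43), where that of all pericytes of the regions was 2.67. A further 188 hippocampal vascular cells carried pericyte markers with 14249 CPM of endothelial ones, were left unnamed and held 406 CPM of *P2ry14*. Cells rich in endothelial RNA were thus named pericytes in cortex and left unnamed in hippocampus. The ratio of 2.67 is therefore between pericyte classes of unlike make-up.

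**Figure D3:**
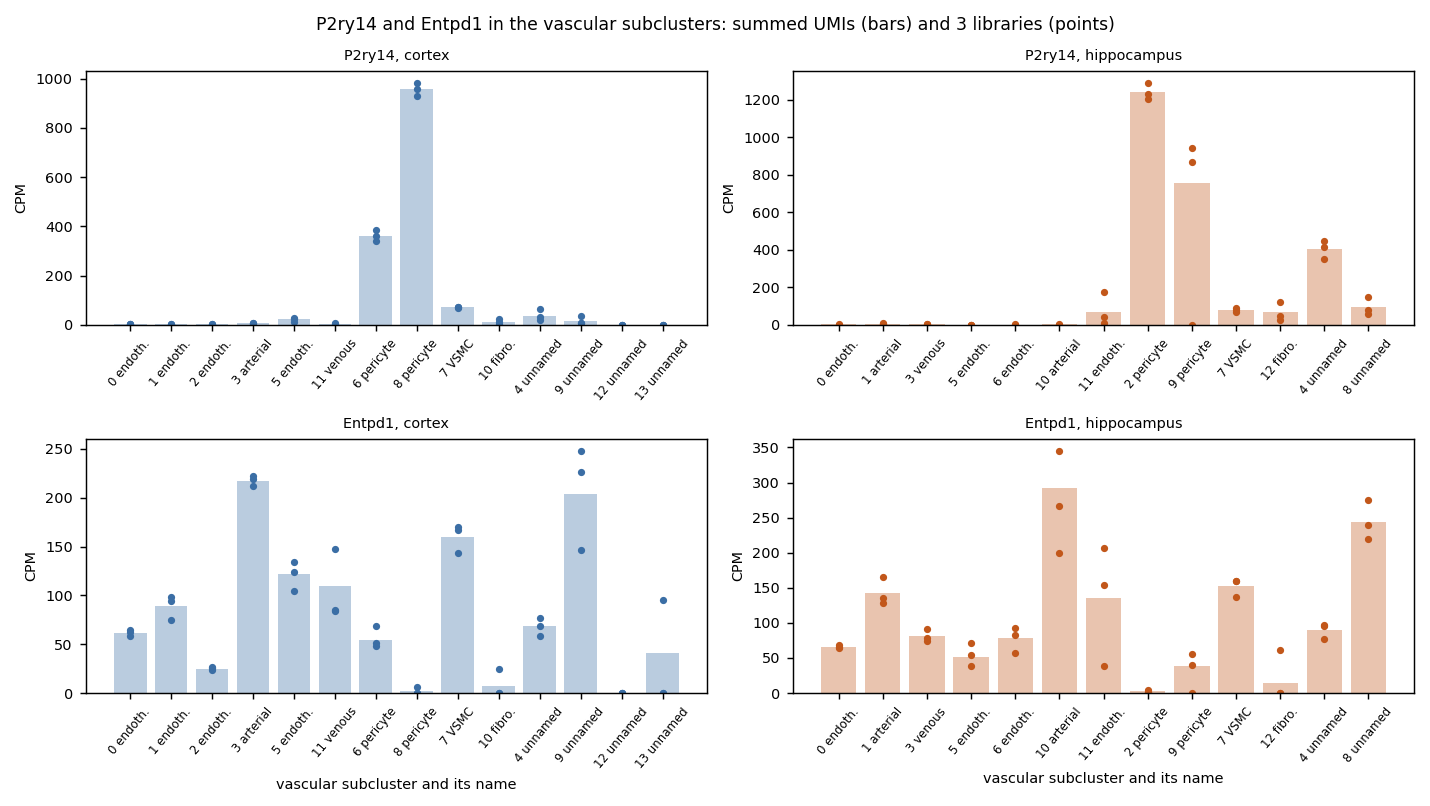
Level of *P2ry14* and *Entpd1* (CPM) in the subclusters of vascular cells of cortex and hippocampus, with bars for summed UMIs and points for the 3 technical libraries. *P2ry14* is high in the pericyte subclusters low in endothelial markers (956 CPM in cortex and 1242 CPM in hippocampus), and *Entpd1* is higher in the arterial than in the venous subclusters (217 and 109.6 CPM in cortex).

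*Entpd1* was found in the vessel wall as well as in microglia. VSMCs read 169.9, 167 and 143 CPM in cortex and 137, 159 and 159 CPM in hippocampus, and endothelial cells 86.5, 89.3 and 81.5 CPM and 112, 97.5 and 93.6 CPM. In both regions each VSMC library lay above each endothelial one, with ratios of 1.86 (1.65 to 2.09) and 1.50 (1.28 to 1.75). Microglia stood 2.38-fold and 2.75-fold above VSMCs.

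Among endothelial cells *Entpd1* was higher in the subclusters with arterial markers. The cortical arterial subcluster read 219, 212 and 222 CPM and the venous one 84.0, 148 and 85.5 CPM, a ratio of 1.98 (1.59 to 2.50). The libraries of the arterial and venous cells did not overlap. In hippocampus 2 subclusters carried arterial markers, at 142 and 292 CPM, against 81.6 CPM in the venous one, with ratios of 1.74 (1.49 to 2.03) and 3.58 (2.86 to 4.47). The lowest cortical endothelial subcluster, led by *Adm*, *Meox1* and *Apln*, held 25.1 CPM.

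Pericytes themselves held little *Entpd1*. The cortical pericytes read 45.8 CPM as a class, but the subcluster rich in endothelial RNA held 54.4 CPM and the other 1.67 CPM, a single UMI. Hippocampal pericytes held 3.73 CPM.

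Between the regions, none of the 6 genes with enough UMIs differed in microglia by 1.5-fold or more with separate libraries, where 7.99% of the 12064 genes tested did in either direction and 4.93% did towards the hippocampus. *P2ry14* was under the 50 UMIs needed. *P2rx4* came nearest, higher in hippocampus by 0.56 on the log2 scale, a ratio of 1.48 (1.40 to 1.56). It passed 1.5-fold without cortex replicate 2, at 0.62 on the log2 scale, and without hippocampus replicate 3, at 0.59. *P2rx4* was also higher, without overlap of libraries, in hippocampal astrocytes (1.65-fold), endothelial cells (1.91-fold) and pericytes (2.59-fold), as were 30.4%, 36.8% and 27.4% of the genes tested in these classes. Between the pericyte subclusters low in endothelial markers its ratio was 2.08 (1.05 to 4.58), from 54 and 10 UMIs. The libraries overlapped in VSMCs (0.941-fold) and in oligodendrocytes (1.05-fold), whose cortical cells also carried precursor markers.

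*P2ry13* was higher in hippocampal microglia by 0.25 on the log2 scale, a ratio of 1.19 (1.17 to 1.21). *P2ry12* was lower there, at -0.10 and a ratio of 0.930 (0.923 to 0.937), and *P2ry6* stood at -0.09. The libraries of the regions did not overlap for these 3 and *P2rx4*, 4 of the 6, and did not for 51.0% of all genes tested. The median of all genes was 0.09 towards the hippocampus, as large as the *P2ry6* difference.

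**Figure D4:**
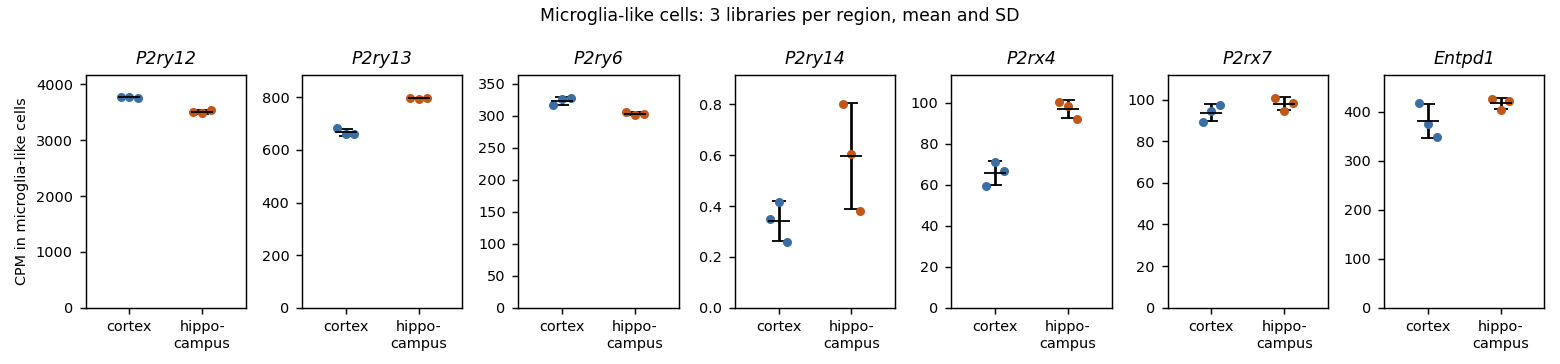
Level of the 7 genes (CPM) in the microglia of each of the 3 cortical and 3 hippocampal libraries (points), with their mean and SD. The regions separate without overlap for *P2ry12*, *P2ry13*, *P2ry6* and *P2rx4*, by 0.930-fold, 1.19-fold, 0.937-fold and 1.48-fold, and overlap for the rest.

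Microglia also differed among themselves. One subcluster in each region, 441 cortical and 350 hippocampal cells, had *Ccl4* and *Csf1* among its 5 leading genes and held 2874 and 3357 CPM of a list of chemokine genes, against 222 and 256 CPM in the largest subcluster. *P2ry12* read 2429, 2460.2 and 2218 CPM in the cortical one, against 4319, 4207 and 4288 CPM in the largest subcluster, a ratio of 0.554. In hippocampus it read 1726, 1759 and 1588 CPM, a ratio of 0.403. Both were lower in every library. The summed microglial markers changed less, from 37411 to 32677 CPM in cortex and from 39578 to 32743 CPM in hippocampus.

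The ADP receptor genes and *P2rx4* differed in opposite directions in these cells. *P2ry13* followed *P2ry12*, with ratios of 0.624 in cortex and 0.456 in hippocampus. *P2rx4* was higher, at 88.6 CPM against 58.9 CPM in cortex, a ratio of 1.50 (1.30 to 1.73), and at 129 CPM against 94.0 CPM in hippocampus, a ratio of 1.37 (1.22 to 1.53). *P2ry6* stood at 324 against 327 CPM in cortex and at 275 against 306 CPM in hippocampus. *P2rx7* stood at 103 against 95.2 CPM and at 81.3 against 104 CPM, and *Entpd1* at 372 against 396 CPM and at 343 against 455 CPM. The subclusters were drawn from the expression of these cells, so these values are a description.

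The chemokine-rich cells were not the lowest for every gene. The shallow subclusters, 181 cortical cells with a median of 1421 UMIs and 240 hippocampal cells with 1689.5, held 1481 and 1265 CPM of *P2ry12* and 92.2 and 60.8 CPM of *P2ry6*. A small subcluster rich in interferon-induced genes held 3542 CPM of *P2ry12* in cortex and 3063 CPM in hippocampus, with *P2rx4* at 77.0 and 113 CPM.

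**Figure D5:**
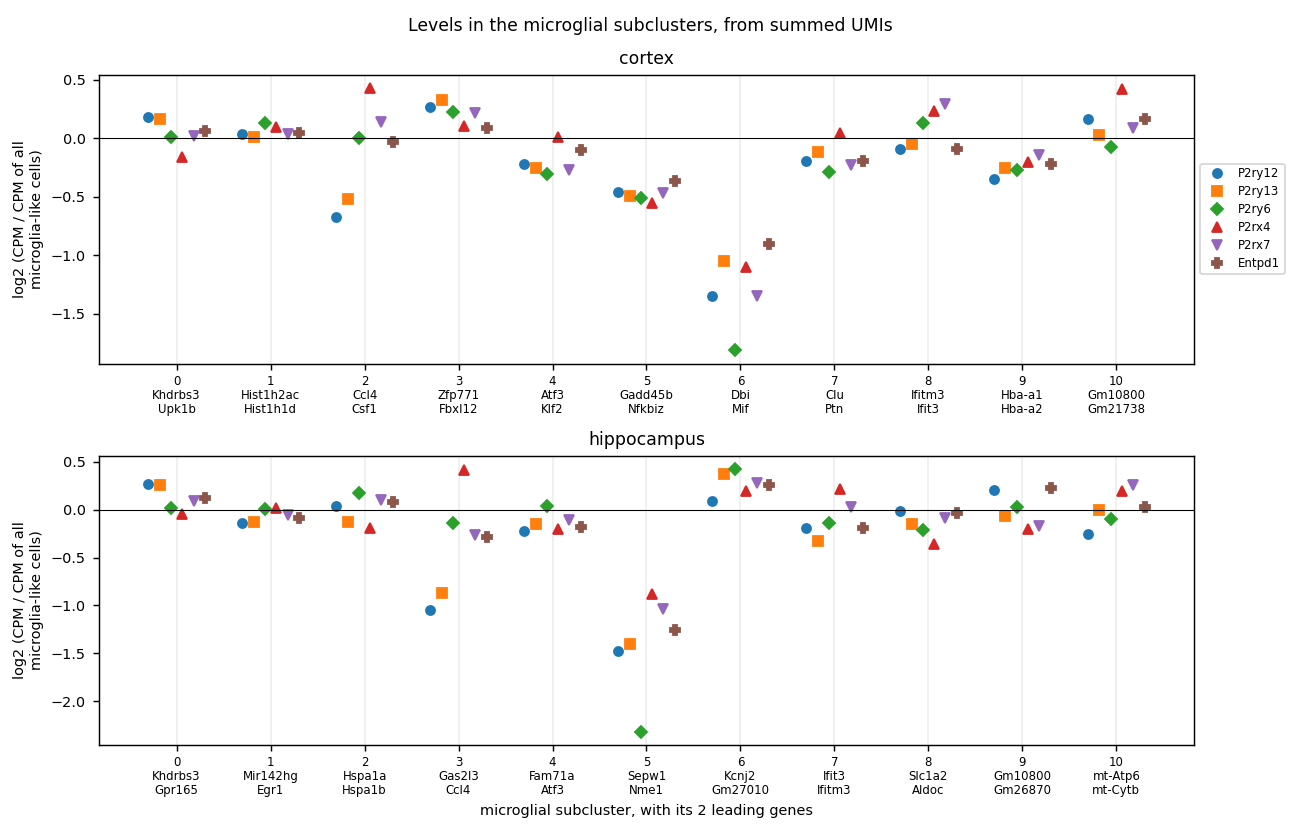
Level of 6 genes (symbols) in each microglial subcluster of cortex and hippocampus, as log2 of its CPM over that of all microglia, from summed UMIs and with the 2 leading genes of the subcluster on the x axis. In the subclusters with *Ccl4* among the leading genes (2 in cortex, 3 in hippocampus), *P2ry12* is lower than in the largest subcluster (2364 against 4271 CPM in cortex) and *P2rx4* higher (88.6 against 58.9 CPM).

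Among all 41 genes of nucleotide and adenosine signalling listed for this purpose, 20 reached 50 CPM in at least 1 class of 50 cells or more in cortex and 21 of 40 did in hippocampus, 8 and 7 of them highest in microglia. The share of all genes that would do so was not computed. These counts, and those by list given below, are therefore descriptions and do not set the list apart from other genes. *Gpr34*, a P2Y12-like orphan receptor gene, stood at 2481 CPM in cortical and 2474 CPM in hippocampal microglia. *Slc29a3*, a nucleoside transporter, at 221 and 273 CPM, and *Adora3*, an adenosine receptor, at 93.5 and 127 CPM, were also highest there.

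Other genes of the pathway were highest elsewhere. *Adk*, which phosphorylates adenosine, was highest in astrocytes at 443 and 267 CPM, as were *Entpd2*, an ATP-preferring relative of CD39, at 174 and 173 CPM, and *Adora2b* at 72.7 and 71.5 CPM. *Adora2a* was highest in pericytes, at 65.5 CPM in cortex and 193 CPM in hippocampus, and *P2rx1* in VSMCs, at 196 and 101 CPM. The cortical pericytes included the 186 cells rich in endothelial RNA, so the 2 *Adora2a* levels are not compared. In cortex the P2Y receptor list had 4 genes that reached 50 CPM, 3 of them highest in microglia, and the P2X list had 3 with none highest there. In hippocampus the counts were 4 with 2 and 3 with none. The adenosine receptors had 3 and 4 that reached it, 1 in each region highest in microglia, and the ectonucleotidases 4 and 3, with 1 in each. The adenosine handling genes had 3 and 3, with 2 and 1, and the nucleotide release genes 2 and 3, with 0 and 1. The orphan list had *Gpr34* alone in both regions.

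Across the 9 classes of 50 cells or more in both regions, 18 profiles in all, the genes most like each receptor were found by Pearson's r over 13703 genes, as a description, since profiles of a region share libraries and depth. *P2ry12* was most like *Siglech* (r = 0.991) and *Gpr34* (0.990), and its 5 nearest genes also held its neighbour *P2ry13* (0.981) and *Cx3cr1* (0.977). *P2ry13* was most like *Gpr34* at 0.989. *P2ry6* was most like *Fcgr3* (0.986), an Fc receptor gene shared by microglia and macrophages, with *Csf1r*, *Cd86*, *Fcgr1* and *Hpgds* next.

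The channel genes were most like genes of other kinds. *P2rx4* was most like *Ctsb* (0.923), *Ctsa* and *Hexa*, which encode lysosomal hydrolases, and *P2rx7* was most like *Hs6st1* (0.959), *Hexa* and *Myo7a*. *P2ry14* was most like *Pcdh18* (0.959), and *Zic4* was also among its 5 nearest genes. *Entpd1*, spread over microglia and vessels, had its nearest gene at 0.907, *Ubtd1*.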

How the data were processed

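Single-cell libraries (10x Genomics, 3′) were aligned to mm10 and counted with Cell Ranger by the authors, who deposited raw UMI counts per gene and barcode. The methods and submitters' processing notes name Cell Ranger 5.0.1, and the file headers name earlier releases. The genes listed differ between the regions.

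Kept cells had 250 to 6000 genes, and mitochondrial UMIs below 25%, or below 15% among the regrouped vascular cells. They were integrated with Seurat 5.3.0 (2000 variable genes, 30 dimensions, resolution 0.5), and clusters were named from fixed markers (at least 3, each in 20% of cells and 2-fold up). All 41 purinergic genes were left out of the clustering features and the marker lists. They could still take places among a cluster's 10 leading genes, and a cluster led by markers of another class was left unnamed. Called doublets were kept and left out as an alternative. UMIs were summed per class and library and given as CPM. Folds against all other cells and log2 differences between regions had 1 CPM added, other ratios had none, and counts of genes needed 50 UMIs. The genes named beside the 7 were those of the purinergic list that reached 50 CPM, the 5 most alike by Pearson's r, and leading subcluster genes. The 7 genes and all lists were chosen with earlier results of these data known. The counting scripts were tested on simulated data. GENCODE vM21 and RefSeq (GRCm38) gave positions and sequences. No sequence window was held for *P2ry6*. Some genes that these rules name are not reported here.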

Additional observations from a re-analysis of the deposited data

Results flagged for a closer look

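In 2 of 42 combinations of a gene and a pair of classes (6 pairs, chosen after the values were seen), every library of one region moved one way and every library of the other the opposite way. *P2ry6* in macrophages over microglia was -0.82 on the log2 scale in cortex (-0.59, -0.65 and -1.22 by library) and 0.44 in hippocampus (0.43, 0.24 and 0.66). *Entpd1* in VSMCs over macrophages was 0.59 in cortex (0.76, 0.64 and 0.38) and -0.68 in hippocampus (-0.91, -0.64 and -0.48). Neither difference was tested, since each region was 1 pooled sample, and the microglial markers in the macrophages stood at 14.4% of the microglial level in cortex and 26.2% in hippocampus. Both combinations rest on the same macrophages, in which 25.5% of the 4139 genes tested were higher in hippocampus without overlap of libraries. The share of all genes that this rule would flag was not computed, so the count is a description.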

How the results depend on the processing

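The counts of genes at least 4-fold higher in microglia were 5 in both regions and under every alternative, except 6 in cortex with TMM factors, which added *P2rx4*. The count of genes differing between regions in microglia was 0 and, leaving out 1 library at a time, ranged from 0 to 1, the 1 being *P2rx4* without cortex replicate 2 or without hippocampus replicate 3. Of 48 recomputed counts 46 kept their value within 1.5-fold. Of 394 recomputed levels and ratios of single genes 353 moved by no more than the spread and 41 moved more. Of the 126 log2 ratios between regions among them 1 changed sign, *P2rx7* with TMM factors, from 0.06 to -0.03. Some of the 394 could not move. Dropping the UMI minimum changes no level or ratio, adding 5 CPM changes no level, and TMM factors were not applied to pericyte levels. These are counted among the 353, which is therefore no measure of robustness.

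*P2ry14* in cortical pericytes went from 459.7 to 795 CPM when cells were classed by their own marker UMIs and to 956 CPM without the subcluster rich in endothelial RNA, an alternative added after the data were seen, and *Entpd1* there went from 45.8 to 10.1 and 1.67 CPM. The cause was not tested. No paired analysis was possible because no test was made and the replicate numbers name technical libraries of different suspensions in the regions. *P2ry14* in microglia rested on 12 and 25 UMIs.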
